A study of Mus musculus with 21 samples.

Results

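The genes described here are 40 tied to mitosis: to entry, the spindle, the hold and release of chromosomes, and the split into daughter cells. They were chosen by gene symbol, with earlier results of these data known. They make up 40 of the 18193 genes that the Affymetrix Mouse Genome array names with a single symbol. The array carries 94 probe sets for them, of 45037 in all. Each gene is given through 1 probe set, the brightest over the 21 arrays. All 40 passed the filter on dim probe sets in every fit.

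Mitotic genes are transcribed late in the cell cycle, so that in a mixed population their RNA follows the share of cells in S phase, G2 and mitosis. Cyclin-dependent kinase 1 with its cyclins drives entry, the Aurora and Polo kinases build and correct the spindle, the spindle checkpoint holds back the anaphase-promoting complex until every kinetochore is attached, and separase then frees the chromatids. In bone marrow, pro-B cells and large pre-B cells divide under IL-7 and the pre-B cell receptor, and cells stop dividing as they become small pre-B and immature B cells. BLNK is an adaptor protein that carries the pre-B cell receptor signal, and LAP is the activating form of the transcription factor C/EBPβ, encoded by Cebpb.

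The 21 arrays fell into 7 groups of 3. Of the 4 sorted groups, all B220-positive bone marrow cells, the first came from wild-type mice, the second from Cebpb LAP transgenic mice (LAP marrow), the third from Blnk knockout mice (knockout marrow) and the fourth from mice with both changes (LAP knockout marrow). The other 3 groups were LB31, a pre-B acute lymphoblastic leukaemia line from a Blnk knockout mouse, grown with 5 ng/ml IL-7 and carrying a pMY retroviral vector that was empty, held Blnk cDNA or held the loss-of-function YF mutant of Blnk. All LB31 cells therefore lack their own functional Blnk, and the 9 LB31 arrays are of 1 line. Age and sex of the mice and the promoter of the LAP transgene are not given in the sources used here. Nothing says that the 3 arrays of a group came from separate mice or transductions. The p-values therefore measure only the spread between arrays of a group, pooled over all groups fitted together, which may be technical.

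The arrays of a group correlated at 0.963 to 0.980 over all probe sets. The deposited array medians ran from 15.3 to 31.4, which the normalization evened out. Before it they differed with the Blnk knockout and between marrow and LB31 cells. They averaged 21.5 in wild-type, 21.1 in LAP, 28.8 in knockout and 29.3 in LAP knockout marrow. In the LB31 groups they averaged 16.7 to 18.4. The part of these differences in the results was not tested. The brightest Cebpb probe set followed the labels in marrow, at 5.43 ± 0.10 in wild-type and 10.05 ± 0.15 in LAP marrow (log2, SD, n = 3). It read 5.02 ± 0.35 in knockout and 9.90 ± 0.08 in LAP knockout marrow. In LB31 cells it was near the level of LAP marrow, at 10.22 ± 0.10 (empty vector), 10.11 ± 0.05 (Blnk) and 10.09 ± 0.16 (YF mutant). The other Cebpb probe set averaged 4.62 to 5.02 in the LB31 groups. The Blnk probe set did not follow the labels, at 12.44 ± 0.09 in wild-type and 12.37 ± 0.24 in knockout marrow. It was lower with the Blnk vector (8.56 ± 0.06) than with the empty vector (9.63 ± 0.02), so it checks neither the knockout nor the vector. Of other cell types, neutrophil, erythroid, monocyte and granulocyte precursor markers were present in every marrow group. Their means were highest on LAP array 3 (11.22, 9.58, 8.98 and 9.01 as mean log2). In LB31 cells the means of all 3 myeloid lists stayed between 2.88 and 4.80.

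To show what many of these genes share beside their function, the 250 bases upstream of the annotated start (RefSeq, GRCm38.p6) were searched on both strands for the letters TTTGAA (the cell cycle homology region, or CHR, where the DREAM and B-MYB complexes are known to act) and CCAAT (bound by NF-Y). Of the 33 members with a sequence, 12 held TTTGAA, 25 held CCAAT and 11 held both. Counted by window, TTTGAA was in 14 of the 36 member windows (38.9%) against 5252 of all 32851 windows, and CCAAT in 77.8% against 33.8%. The E2F site letters TTTCCCGC and TTTGGCGC were in none of the 36, against 0.895% and 0.417% of all windows. Bub3, Prc1 and Ect2 each have more than 1 window, and these overlap, so that some sites are counted more than once. Of the 79 matches to TTTGAA and CCAAT counted over the member windows, only 1 overlapped its neighbour within a window. The upstream windows of 6 members named in the results are printed 5′ to 3′ with both motifs in capitals. Plk1 (chr7:122159185-122159434 on the plus strand) and Kif11 (chr19:37376132-37376381 on the plus strand) rose in LAP knockout marrow and were higher in LB31 cells than in knockout marrow. Cdc20 (chr4:118437344-118437593 on the minus strand) was the only member called between LAP knockout and knockout marrow, Cdk1 (chr10:69352913-69353162 on the minus strand) is the central kinase, and Top2a (chr11:99024190-99024439 on the minus strand) and Mki67 (chr7:135716380-135716629 on the minus strand) were lower in LB31 cells than in knockout marrow, Top2a not so under median centring. Of these windows only that of Plk1 lacks TTTGAA, so the printed windows hold it more often than the members do. The windows of Cenpf and Kif23, not printed, hold CCAAT but not TTTGAA, and those of Anln and Ndc80 hold neither.
Plk1: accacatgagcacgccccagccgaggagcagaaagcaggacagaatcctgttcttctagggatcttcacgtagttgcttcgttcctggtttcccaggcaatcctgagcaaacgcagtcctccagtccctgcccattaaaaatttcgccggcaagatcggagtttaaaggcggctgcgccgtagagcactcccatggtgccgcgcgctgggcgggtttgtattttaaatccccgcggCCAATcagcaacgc
Kif11: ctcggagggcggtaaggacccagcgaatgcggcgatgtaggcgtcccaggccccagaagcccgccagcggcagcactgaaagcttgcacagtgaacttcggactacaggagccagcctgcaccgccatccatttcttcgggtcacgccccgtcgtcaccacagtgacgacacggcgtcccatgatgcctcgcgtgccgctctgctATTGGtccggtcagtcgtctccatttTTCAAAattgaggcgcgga
Cdc20: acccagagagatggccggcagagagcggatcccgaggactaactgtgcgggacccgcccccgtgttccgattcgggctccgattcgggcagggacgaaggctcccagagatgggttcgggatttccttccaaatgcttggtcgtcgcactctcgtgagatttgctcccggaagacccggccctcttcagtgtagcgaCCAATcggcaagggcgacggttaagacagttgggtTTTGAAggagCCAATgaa
Cdk1: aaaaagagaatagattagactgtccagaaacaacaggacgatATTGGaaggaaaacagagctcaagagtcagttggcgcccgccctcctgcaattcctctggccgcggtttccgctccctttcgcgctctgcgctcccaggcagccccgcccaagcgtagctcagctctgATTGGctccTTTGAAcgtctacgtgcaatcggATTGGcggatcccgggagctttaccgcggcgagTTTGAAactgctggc
Top2a: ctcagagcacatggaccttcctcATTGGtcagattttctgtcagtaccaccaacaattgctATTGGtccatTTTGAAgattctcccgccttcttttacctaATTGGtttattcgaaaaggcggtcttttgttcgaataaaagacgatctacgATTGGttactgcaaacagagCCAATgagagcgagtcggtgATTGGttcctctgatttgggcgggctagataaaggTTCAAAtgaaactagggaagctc
Mki67: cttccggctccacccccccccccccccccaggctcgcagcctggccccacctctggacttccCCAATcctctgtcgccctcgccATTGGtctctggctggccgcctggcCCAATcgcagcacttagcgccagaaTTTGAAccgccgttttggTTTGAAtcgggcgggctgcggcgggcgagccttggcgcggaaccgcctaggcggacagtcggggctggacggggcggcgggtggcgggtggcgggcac

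Across the 7 groups, on the normalized scale and by the brightest probe sets, the mitotic genes were on average lowest in wild-type marrow and highest in LAP knockout marrow. The mean over the 40 genes, on the log2(signal + 4) scale used for every level here, was 9.43 ± 0.06 in wild-type, 9.60 ± 0.07 in LAP, 9.66 ± 0.33 in knockout and 9.99 ± 0.17 in LAP knockout marrow (SD over 3 arrays). LB31 cells gave 9.74 ± 0.02 (empty vector), 9.84 ± 0.01 (Blnk) and 9.81 ± 0.01 (YF mutant). Of neighbours in the order of these means, LAP and knockout marrow, knockout marrow and LB31 with the empty vector, and LB31 with Blnk and LAP knockout marrow differed by less than the wider SD of the pair. LAP knockout marrow had the highest mean of the 4 marrow groups for 38 genes and of all 7 groups for 24, and wild-type marrow had the lowest of the marrow groups for 34. The order of LB31 cells and LAP knockout marrow rests on the processing. The median change of LB31 with the empty vector against LAP knockout marrow was -0.33 as reported. It was 0.06 with median centring and 0.08 with the mean of all probe sets. A list of other mitosis genes averaged 8.76 in LAP knockout marrow and 8.80 to 8.95 in the LB31 groups. In these bulk samples, a smaller share of dividing cells and less RNA per dividing cell cannot be told apart.

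**Figure D1:**
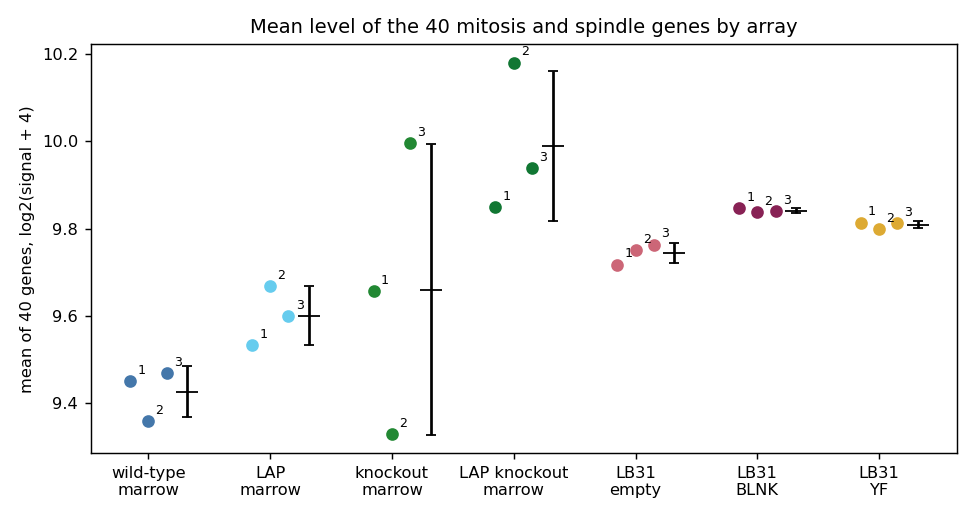
Mean of the 40 mitosis and spindle genes (vertical axis, log2(signal + 4)) on each array, by group; points are arrays with their number, and beside them stands the group mean with a bar of 1 SD either way. The 3 knockout marrow arrays lie at 9.66, 9.33 and 10.00, a wider spread than in any other group.

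The knockout marrow arrays stood apart from each other in these genes. Their means were 9.66, 9.33 and 10.00, and array 2 was the lowest of the 3 for 40 of 40 genes while array 3 was the highest for 39. The SD of a gene over these arrays had a median of 0.35, against 0.09 in wild-type marrow, 0.18 in LAP knockout marrow and 0.04 in LB31 cells with Blnk. DNA replication genes averaged 9.36, 9.13 and 9.70 on the same arrays, in the same order, whereas megakaryocyte markers, at 7.67, 7.69 and 8.82, were high on array 3 only. Erythroid markers averaged 7.08, 7.85 and 8.52, granulocyte precursor markers 6.56, 7.01 and 7.44, and monocyte markers 7.27, 7.97 and 8.08. These lists were thus also highest on array 3, but lowest on array 1. In LAP knockout marrow, array 2 (mean 10.18) was the highest for 38 genes, and the megakaryocyte markers averaged 9.67, 9.35 and 9.07. The part of the RNA of megakaryocytes and these other cell types in the values was not tested.

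**Figure D2:**
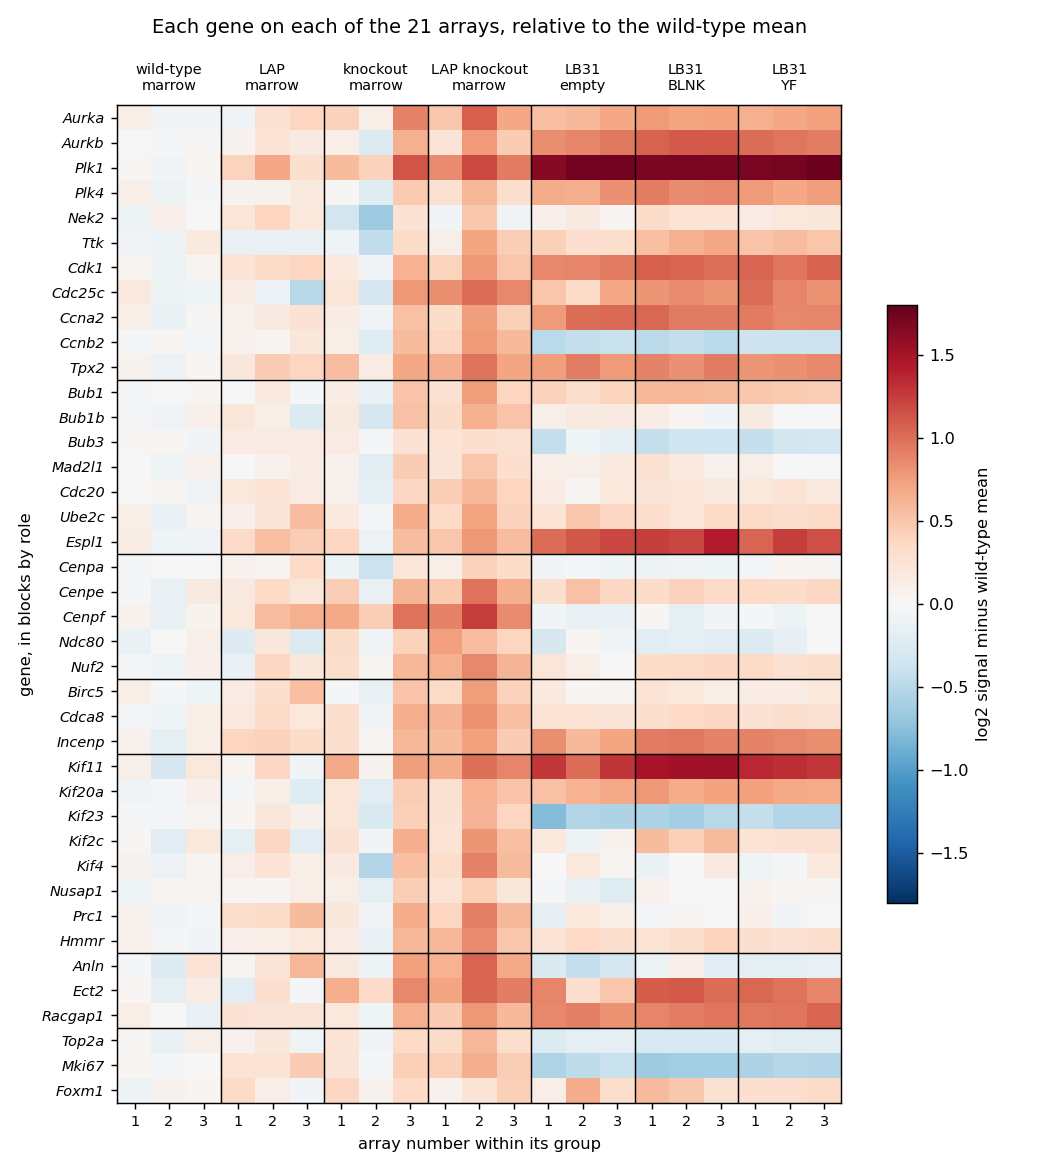
Each of the 40 genes (rows, in blocks by role) on each of the 21 arrays (columns), as log2 signal minus the gene's mean in wild-type marrow; red is above it and blue below. Knockout array 3 and LAP knockout array 2 are redder than the other arrays of their groups along nearly the whole column, whereas in LB31 cells single genes such as Plk1 and Kif11 are red and Ccnb2, Kif23 and Mki67 are blue.

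LAP knockout marrow against wild-type marrow asks what both genetic changes do together. Of the 40 genes 30 rose and none fell at an adjusted p under 0.05, where 16.5% of all 13342 genes tested were called higher and 14.7% lower. All 40 log2 changes were above 0, against 54.2% of all genes, and ran from 0.13 to 0.99, with a median of 0.54 against 0.04 over all genes. The 3 arrays of each group did not overlap for 38 of the genes, all higher, where 26.9% of all genes were apart and higher and 22.3% apart and lower. No member reached a called change of 2-fold.

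Among the mitotic kinases and their activators 7 of 11 rose. Plk1, the Polo kinase of mitotic entry and centrosome maturation, read 7.90, 7.84 and 7.91 in wild-type and 8.73, 9.07 and 8.82 in LAP knockout marrow. Every LAP knockout array was above every wild-type array, and the difference was 1.98-fold (log2 0.99 ± 0.17 SE, adjusted p = 0.000554). Cdc25c, the phosphatase that activates cyclin-dependent kinase 1, read 6.56, 6.28 and 6.29 in wild-type and 7.21, 7.38 and 7.24 in LAP knockout marrow, again without overlap (1.86-fold, log2 0.90 ± 0.24, adjusted p = 0.0108). The smallest difference of the block belonged to Nek2, a kinase that separates the centrosomes. Its arrays overlapped, at 9.30, 9.48 and 9.40 against 9.35, 9.88 and 9.34 (log2 0.13 ± 0.20, adjusted p = 0.678). Tpx2, the activator of Aurora A, was called under every alternative. Cdk1, cyclin A2 (Ccna2), cyclin B2 (Ccnb2), Aurora A (Aurka) and Tpx2 rose by 0.50 to 0.78, whereas Aurkb, Plk4, which duplicates centrioles, and the checkpoint kinase Ttk gave 0.39 to 0.49 and were not called.

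In the spindle checkpoint and anaphase block 6 of 7 rose. Espl1 encodes separase, which cleaves cohesin. It read 7.42, 7.21 and 7.23 in wild-type and 7.78, 8.07 and 7.83 in LAP knockout marrow (log2 0.61 ± 0.15, adjusted p = 0.00902). Bub3, a checkpoint protein that brings Bub1 to the kinetochore, had the smallest difference of the block and the arrays of each group lay close together, at 11.43, 11.45 and 11.37 against 11.67, 11.71 and 11.70 (log2 0.28 ± 0.07, adjusted p = 0.00736). Neither gene's groups overlapped. Bub1, Bub1b, the anaphase-promoting complex activator Cdc20 and its ubiquitin-conjugating enzyme Ube2c rose by 0.47 to 0.49, and Mad2l1 gave 0.35 and was not called.

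At the kinetochore and centromere 4 of 5 rose. Cenpf, a kinetochore protein of G2 and mitosis, had the largest change of all 40, from 9.37, 9.16 and 9.37 to 10.19, 10.54 and 10.14 (1.99-fold, log2 0.99 ± 0.15, adjusted p = 0.000269). Its groups were well apart. Cenpa, the histone variant that marks centromeres, read 10.70, 10.74 and 10.74 against 10.83, 11.14 and 11.05, apart but not called (log2 0.28 ± 0.13, adjusted p = 0.135). The kinetochore motor Cenpe and the microtubule-binding Ndc80 and Nuf2 rose by 0.56 to 0.71.

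All 3 partners of Aurora B in the chromosomal passenger complex rose. Cdca8, which encodes borealin, read 10.41, 10.36 and 10.55 in wild-type and 11.05, 11.24 and 10.98 in LAP knockout marrow (log2 0.65 ± 0.14, adjusted p = 0.00329). Birc5, which encodes survivin, read 10.61, 10.48 and 10.42 against 10.85, 11.25 and 10.92 (log2 0.50 ± 0.16, adjusted p = 0.0293). For both genes the groups did not overlap, and the scaffold Incenp rose by 0.59.

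Of the kinesins and spindle microtubule proteins 5 of 8 rose. Kif11, the motor that pushes spindle poles apart, went from 9.14, 8.74 and 9.23 to 9.70, 10.03 and 9.91 (log2 0.85 ± 0.18, adjusted p = 0.00339). Nusap1, a microtubule-bundling protein, read 10.65, 10.75 and 10.77 against 10.96, 11.15 and 10.93 (log2 0.29 ± 0.12, adjusted p = 0.0902). The groups of both genes were apart, but that of Nusap1 did not pass the test. Kif20a, Kif23, Prc1 and Hmmr, of which the first 3 act in the central spindle, rose by 0.42 to 0.65. Kif2c, which depolymerises microtubules, and the chromokinesin Kif4 gave 0.53 and 0.59 and were not called.

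The 3 cytokinesis genes all rose. Ect2, the exchange factor that activates RhoA at the division plane, read 9.31, 9.11 and 9.42 in wild-type and 9.99, 10.34 and 10.20 in LAP knockout marrow (1.86-fold, log2 0.89 ± 0.15, adjusted p = 0.000589). Racgap1, the centralspindlin subunit that binds Ect2, read 8.68, 8.57 and 8.43 against 9.02, 9.34 and 9.14 (log2 0.60 ± 0.15, adjusted p = 0.00793). No array overlapped for either gene, and anillin (Anln) rose by 0.78.

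In the last block 2 of 3 rose. Mki67, the Ki-67 antigen used to mark cycling cells, read 12.09, 12.03 and 12.04 in wild-type and 12.49, 12.71 and 12.49 in LAP knockout marrow (log2 0.51 ± 0.10, adjusted p = 0.00220). Foxm1, a transcription factor of G2 genes, was dim and read 6.24, 6.40 and 6.37 against 6.42, 6.59 and 6.77 (log2 0.26 ± 0.15, adjusted p = 0.218). Both were apart, that of Foxm1 narrowly and without a call. Topoisomerase II alpha (Top2a) rose by 0.42.

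The rise across members was seen in part in other probe sets of the same genes. Of 34 further probe sets of the 30 called members, 18 were called higher, 16 were not called and none was called lower. Some of the 16 had a lower mean in LAP knockout than in wild-type marrow. Examples are dim probe sets of Bub1b (4.62 in wild-type and 3.46 in LAP knockout marrow) and Hmmr (5.58 and 4.69). Median centring left 14 genes called and leaving out LAP knockout array 2 left 18, all of them higher. With the mean of all probe sets of a gene, Aurka and Bub1b turned to -0.01 and -0.0064.

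**Figure D3:**
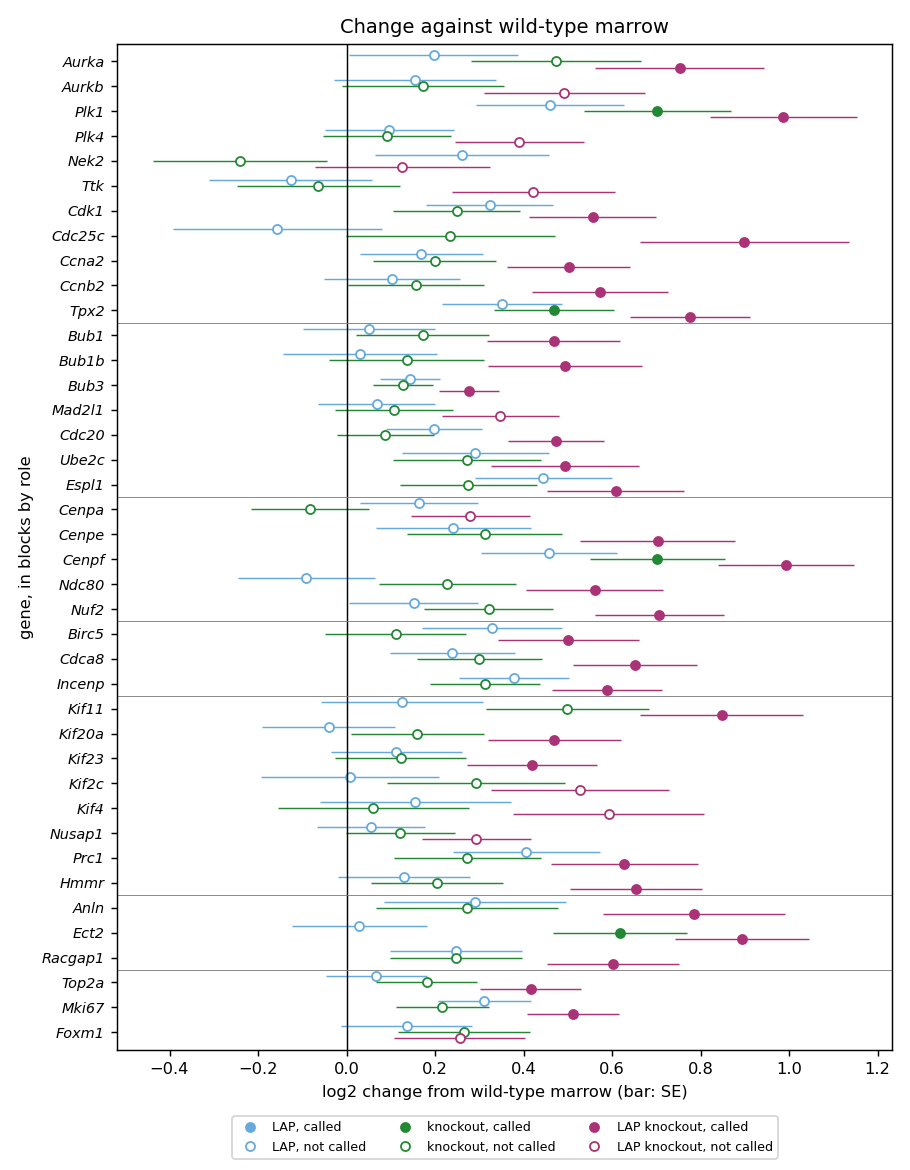
Log2 change from wild-type marrow (horizontal axis, bar 1 SE) for each of the 40 genes in LAP, knockout and LAP knockout marrow; filled points were called at adjusted p under 0.05. The LAP knockout points lie between 0.13 and 0.99 and 30 are filled, against 4 in knockout and 0 in LAP marrow, and the 3 series share the wild-type arrays.

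Genes of the rest of the cell cycle, from lists drawn up by function, moved in part with the members. Of 71 other mitosis genes tested 34 rose and none fell in LAP knockout against wild-type marrow, with Pimreg (log2 1.62) and the separase inhibitor Pttg1 (1.38) at the top. Of 25 DNA replication genes 13 rose, led by thymidylate synthase (Tyms, 1.47) and Mcm3 (0.99), and 1 fell, the licensing factor Cdt1 (-0.60). Among 15 transcription regulators of the cell cycle 5 rose and 1 fell, with Mybl2, the B-MYB gene, at 0.97 and Tfdp1 at 0.78. Of 11 genes of D cyclins, their kinases and CDK inhibitors 4 rose and 1 fell (median 0.44): the inhibitor Cdkn1a rose, at 1.79, and Ccnd2 fell by 2.01 on the log2 scale.

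The cell type markers also differed between the same groups. All 13 immature and mature B markers tested fell in LAP knockout against wild-type marrow (median log2 change -4.11), whereas 6 of 13 pro-B and large pre-B markers rose and 2 fell (median 0.56). All 7 megakaryocyte markers rose (median 1.63), as did 3 of 11 neutrophil markers, 1 of 8 monocyte and 1 of 6 granulocyte precursor markers, and of 10 erythroid markers 1 fell. The mean level of the immature and mature B markers was 10.96 to 11.16 on the wild-type arrays and 6.78 to 7.03 on the LAP knockout arrays, and that of the megakaryocyte markers 7.68 to 7.70 and 9.07 to 9.67. The part of these shifts in cell makeup in the rise of the mitotic genes was not tested.

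Loss of Blnk alone, knockout against wild-type marrow, gave 4 rises and no fall among the 40 genes. Of all genes 8.42% were called higher, 8.69% lower and 17.1% in either direction. The share of members called higher was thus near that of all genes, and the share called in either direction was below it. The median change was 0.22, against 0.01 over all genes, and 37 changes were above 0, against 51.1% of all genes. Cenpf rose most clearly, from 9.37, 9.16 and 9.37 to 9.99, 9.74 and 10.28 (log2 0.70 ± 0.15, adjusted p = 0.00646). Plk1 rose from 7.90, 7.84 and 7.91 to 8.45, 8.30 and 9.01 (0.70 ± 0.17, adjusted p = 0.0107). Ect2 rose from 9.31, 9.11 and 9.42 to 9.94, 9.62 and 10.14 (0.62 ± 0.15, adjusted p = 0.0131). None of these groups overlapped, nor did those of Tpx2, the fourth gene called (0.47), and of Aurka, which was not called. Only 5 members were apart, all higher, where 17.7% of all genes were apart and higher and 18.3% apart and lower. The test pooled the spread of all 4 marrow groups, which was widest in knockout marrow (median SD 0.35). The part of this in the calls was not tested. Without knockout array 2 the count was 11, and without knockout array 3 or wild-type array 2 it was 2. With median centring it was 1, that of Plk1, the only member called under every alternative. The values as deposited gave 14 and the single fit of all 21 arrays 7. All 13 immature and mature B markers fell between these groups (median -2.01), and of 13 pro-B and large pre-B markers 6 rose and 1 fell, and their part in the result was not tested.

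The LAP transgene alone, LAP against wild-type marrow, gave no call among the 40 genes in limma's moderated test, where 2.03% of all genes were called higher, 1.89% lower and 3.92% in either direction. At an unadjusted p under 0.05 there were 8, all higher, against 2776 of all 13342 genes, and the lowest adjusted p was 0.108. The median change was 0.16. The groups were apart for 19 genes on the higher side and for 1, Ttk, on the lower, against 12.8% and 12.9% of all genes. The test pooled the spread of all 4 marrow groups. The median SD of a member was 0.09 in wild-type and 0.11 in LAP marrow but 0.35 in knockout marrow. The part of this in the lack of calls was not tested. The largest differences were 0.46 ± 0.17 for Plk1, 0.46 ± 0.15 for Cenpf and 0.44 ± 0.15 for Espl1 (SE). Of the other mitosis genes 1 of 71, the citron kinase gene Cit (0.66), rose, and of the transcription regulators E2f1 (1.05) and E2f2 (0.75). In the single fit of all 21 arrays 6 members were called. The 3' to 5' signal ratio of Gapdh, a measure of RNA integrity, was 0.76 to 0.80 on the wild-type and 0.87 to 1.04 on the LAP arrays, and its part was not tested.

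Between LAP knockout and knockout marrow, which shows the transgene on the Blnk knockout background, only Cdc20 was called, where 3.34% of all genes were called higher and 4.36% lower. It read 11.37, 11.11 and 11.66 in knockout and 11.73, 11.87 and 11.68 in LAP knockout marrow, so that the groups were only just apart (log2 0.39 ± 0.11, adjusted p = 0.0496). This call lay at the threshold and was lost in 15 of 19 alternatives. Of the 40 changes 39 were above 0, against 55.3% of all genes, with a median of 0.31, and 18 had an unadjusted p under 0.05, against 2719 of all 13342 genes. Knockout array 3 decides this count: without it 25 members were called higher, and without any other array of the comparison none. The single fit of all 21 arrays gave 9. All 7 megakaryocyte markers rose between these groups too, all 13 immature and mature B markers fell (median -2.48) and 6 of 8 plasmacytoid dendritic cell markers fell. Their part in the result was not tested.

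Between LAP knockout and LAP marrow, which shows Blnk loss on the transgenic background, 15 genes rose and none fell, where 14.4% of all genes were called higher and 12.6% lower. The median change was 0.38. Cdc25c read 6.52, 6.27 and 5.87 in LAP and 7.21, 7.38 and 7.24 in LAP knockout marrow, the largest change of the 40 (2.08-fold, log2 1.06 ± 0.24, adjusted p = 0.00472). Ect2 read 9.09, 9.59 and 9.26 against 9.99, 10.34 and 10.20 (0.86 ± 0.15, adjusted p = 0.000899). Kif11 read 9.08, 9.41 and 8.99 against 9.70, 10.03 and 9.91 (0.72 ± 0.18, adjusted p = 0.0105). In all 3 the groups were apart, as they were for 31 of the 40 genes, all higher, against 20.9% of all genes. By role the calls were 6 kinases and activators, 3 kinetochore genes, 3 kinesins and spindle proteins, and 1 each of the passenger complex (Cdca8), cytokinesis (Ect2) and chromosome structure (Top2a). None of the 7 checkpoint and anaphase genes was called, where 5 had an adjusted p between 0.0569 and 0.182 and Ube2c and Espl1 were at 0.424 and 0.496. Only Cdc25c, Ect2, Kif11 and Ndc80 were called under every alternative, and the count was 4 without LAP array 1 or without LAP knockout array 2 and 8 without LAP knockout array 3. Values as deposited gave 39, the single fit of all 21 arrays 23, a fit without the intensity trend 8 and median centring 6. With the mean of all probe sets Aurka and Ttk both turned to -0.02. All 13 immature and mature B markers fell and all 7 megakaryocyte markers rose between these groups too.

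Whether the transgene acts differently with and without Blnk is the interaction of both changes. None of the 40 genes was called in limma's test, where 0.510% of all genes were called higher, 1.30% lower and 1.81% in either direction. At an unadjusted p under 0.05 there were 2, against 2008 of all 13342 genes. Those were Ttk (log2 0.61 ± 0.26, adjusted p = 0.289) and Cdc25c (0.82 ± 0.33, adjusted p = 0.267). The median over the members was 0.17. It ran from -0.0073 to 0.33 as single arrays were left out.

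In the LB31 cells, putting back Blnk was accompanied by small changes in some mitotic genes. Against the empty vector 13 of 40 rose and 1 fell, where 7.32% of all 13034 genes tested were called higher and 8.48% lower. The median change of the members was 0.08. The spread between arrays was small here, with a median SD of 0.04 with Blnk and 0.09 with the empty vector. The arrays were apart for 16 genes on the higher side and 2 on the lower, against 14.3% and 15.6% of all genes.

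The largest changes were in a cytokinesis gene and a pair of kinesins. Ect2 read 10.16, 9.59 and 9.79 with the empty vector and 10.37, 10.38 and 10.29 with Blnk (1.42-fold, log2 0.50 ± 0.10, adjusted p = 0.00532). Kif2c read 9.0, 8.72 and 8.87 against 9.37, 9.24 and 9.37 (1.38-fold, 0.47 ± 0.07, adjusted p = 0.00039). Kif11 read 10.31, 10.04 and 10.32 against 10.53, 10.54 and 10.57 (1.25-fold, 0.32 ± 0.06, adjusted p = 0.0045). All 3 were apart, although empty-vector array 1 of Ect2 came near the lowest Blnk array and the other empty-vector arrays lay well below it. Also called in these blocks were Nusap1 (0.17) and Anln (0.26), while Hmmr, with the smallest difference of the spindle block, overlapped at 9.48, 9.60 and 9.52 against 9.48, 9.56 and 9.64 (0.03 ± 0.05), as did Racgap1 at 9.43, 9.46 and 9.37 against 9.44, 9.48 and 9.52 (0.06 ± 0.05).

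Among the kinases 5 of 11 rose, namely Aurkb, Plk4, Nek2, Ttk and Cdk1, by 0.15 to 0.28. Cdc25c had the largest difference of the block, from 6.88, 6.71 and 7.08 to 7.17, 7.22 and 7.17, apart but not called (0.30 ± 0.10, adjusted p = 0.0708). Plk1 read 9.52, 9.62 and 9.62 against 9.58, 9.59 and 9.58 and overlapped (-0.01 ± 0.04, adjusted p = 0.950). In the checkpoint block Bub1 rose, from 9.95, 9.85 and 9.94 to 10.14, 10.13 and 10.11 (0.22 ± 0.04, adjusted p = 0.00312), and Mad2l1, at 10.45, 10.44 and 10.51 against 10.60, 10.51 and 10.41, overlapped. At the kinetochore Nuf2 rose, from 9.56, 9.45 and 9.33 to 9.67, 9.69 and 9.72 (0.24 ± 0.06, adjusted p = 0.0086), and Cenpa, at 10.67, 10.70 and 10.64 against 10.63, 10.66 and 10.64, overlapped. Of the passenger complex Incenp rose, from 11.79, 11.54 and 11.67 to 11.89, 11.91 and 11.84 (0.22 ± 0.05, adjusted p = 0.0138). Its groups were apart, whereas those of Birc5, at 10.69, 10.54 and 10.55 against 10.75, 10.69 and 10.63, overlapped. Thus each of these 3 blocks held a single called gene.

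Mki67 alone fell, from 11.51, 11.60 and 11.66 with the empty vector to 11.42, 11.43 and 11.43 with Blnk (log2 -0.16 ± 0.04, adjusted p = 0.0125). The groups were apart on the normalized scale. The values as deposited and after median centring put Mki67 above the empty vector instead, by 0.12 and 0.14 and without a call. Foxm1 overlapped, at 6.45, 7.01 and 6.66 against 6.90, 6.83 and 6.61 (0.08 ± 0.14).

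The count of members called depended on the processing. It was 4 with the values as deposited and without the intensity trend, 1 in the single fit of all 21 arrays, 9 with the mean of all probe sets, 18 with median centring, and 8 and 9 without Blnk array 1 or 2. No member was called under every alternative. Beside the members, 25 of 72 other mitosis genes rose and 2 fell, with the kinesin Kif18a at 0.91 and the kinetochore gene Pmf1 at -0.65. Of 25 DNA replication genes 5 rose and none fell, with Rfc4 at 0.32 and Mcm5 at 0.24. Of 10 genes of D cyclins, their kinases and CDK inhibitors 2 rose and 3 fell. The inhibitor Cdkn1a fell by 1.11 on the log2 scale and cyclin D3 (Ccnd3) fell by 0.45.

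With the YF mutant no member was called against the empty vector in limma's test, where 0.146% of all genes were called higher, 0.215% lower and 0.361% in either direction. The groups were apart for 12 members, all higher, against 7.43% of all genes. At an unadjusted p under 0.05 there were 11, all higher, against 1997 of all 13034 genes. The largest differences were 0.40 ± 0.10 for Ect2 (adjusted p = 0.107) and 0.39 ± 0.10 for Cdc25c (adjusted p = 0.108). Ect2 read 10.32, 10.26 and 10.16 with YF, of which only the first was above the lowest Blnk array. Median centring called 24 members and the values as deposited 8, all higher, and the median change over all genes was 0.22 and 0.32 under these scalings, against -0.02 as reported. Without empty-vector array 1 there were 8 calls, of which 6 were higher. Both LB31 comparisons share the empty-vector arrays.

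**Figure D4:**
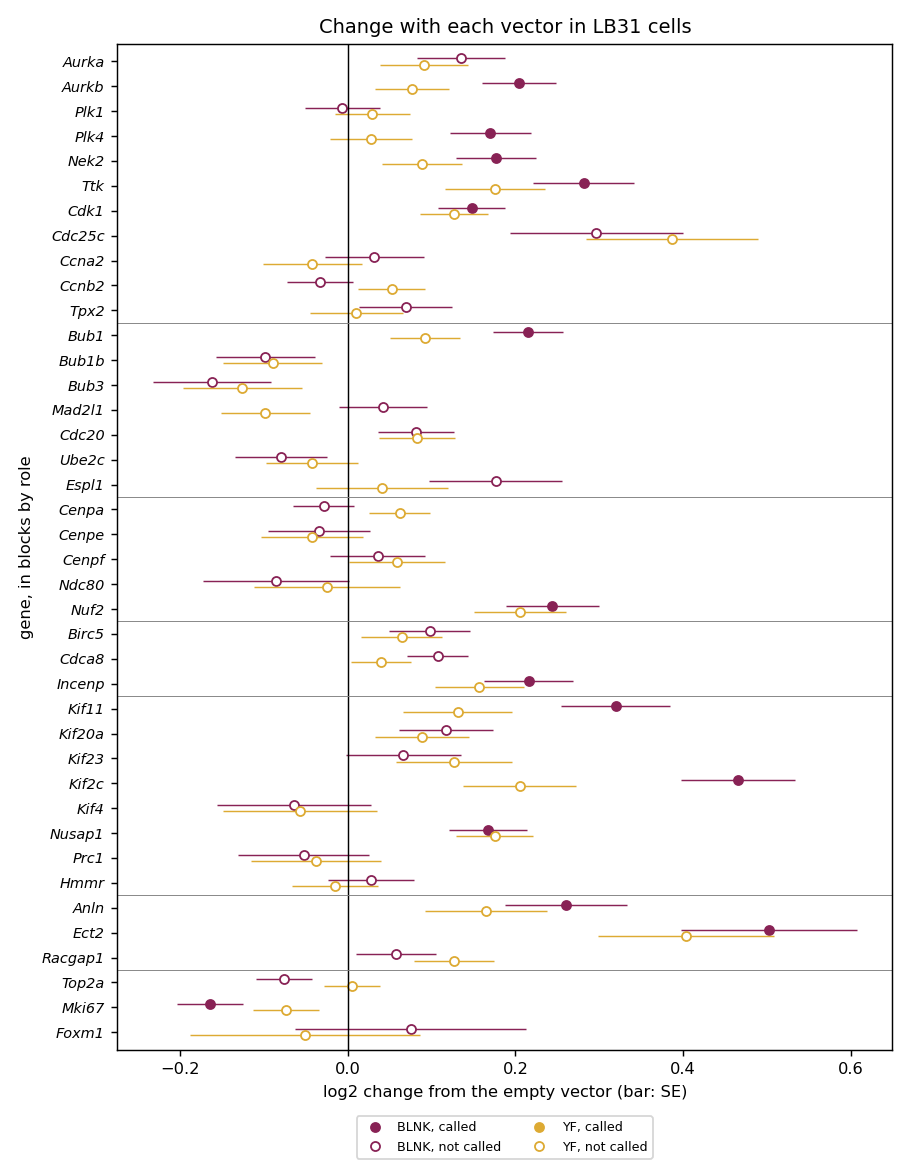
Log2 change from the empty vector (horizontal axis, bar 1 SE) for each of the 40 genes in LB31 cells with Blnk and with the YF mutant; filled points were called at adjusted p under 0.05. Of the Blnk points 14 are filled and of the YF points none, and both series share the empty-vector arrays.

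The direct comparison of Blnk with YF called only Kif2c, where 3.90% of all genes were called higher and 5.09% lower. It read 9.37, 9.24 and 9.37 with Blnk and 9.06, 9.07 and 9.08 with YF, without overlap (log2 0.26 ± 0.07, adjusted p = 0.0285). The other 39 differences, from -0.09 to 0.19, did not pass the test, and 10 of the 40 had an unadjusted p under 0.05, 6 higher and 4 lower, against 2778 of all 13034 genes. A difference that misses the test at 3 arrays a group does not show that the genes were equal. The call of Kif2c was lost with the values as deposited, with median centring, without the intensity trend and in the single fit, and trimmed mean scaling gave 3 calls.

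LB31 cells with the empty vector were set against marrow that also lacks Blnk. The comparison crosses a cultured line and sorted tissue, which cannot be told apart from leukaemia. The brightest Cebpb probe set differed too, at 10.22 in LB31 cells with the empty vector and 5.02 in knockout marrow. In LAP knockout marrow it was at 9.90. The part of Cebpb in the results was not tested. The ratio of the 3' to the 5' probe set of actin, a measure of RNA integrity, was 1.14 to 1.28 on the LB31 arrays and 1.35 to 1.49 on the marrow arrays, and that of Gapdh 0.69 to 0.74 and 0.76 to 1.04. The part of this difference in the results was not tested. Against knockout marrow 12 members were higher and 9 lower, where 29.4% of all 14655 genes tested were called higher and 29.9% lower, and 59.3% in either direction, so the share of members called was near that of all genes. Values as deposited gave 3 higher and 13 lower, median centring 21 and 2, and trimmed mean scaling 15 and 6, so that the balance of directions rests on the scaling. What did not depend on it was the unequal change between members: Plk1, Ccna2 and Cdk1 were called higher and Kif23 lower under every alternative. Without knockout array 3 there were 19 higher and 7 lower, and without knockout array 2 there were 10 and 13.

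The kinases were the block with most rises, 7 of 11. Plk1 read 8.45, 8.30 and 9.01 in knockout marrow and 9.52, 9.62 and 9.62 in LB31 cells (2.00-fold, log2 1.00 ± 0.13, adjusted p = 8.08e-07). Ccna2 read 10.77, 10.57 and 11.16 against 11.41, 11.65 and 11.65 (0.74 ± 0.12, adjusted p = 1.13e-05). Espl1 of the anaphase block read 7.67, 7.18 and 7.84 against 8.29, 8.41 and 8.49 (0.84 ± 0.13, adjusted p = 9.2e-06). None of the 3 overlapped, and 10 members in all were apart and higher, against 32.4% of all genes. Against this run Ccnb2, the other mitotic cyclin of the set, was lower, at 10.81, 10.47 and 11.25 against 10.20, 10.26 and 10.29 (-0.59 ± 0.12, adjusted p = 0.000241).

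Among the members that were lower, Cenpf read 9.99, 9.74 and 10.28 in knockout marrow and 9.24, 9.17 and 9.18 in LB31 cells (1.75-fold lower, log2 -0.81 ± 0.12, adjusted p = 8.12e-06). Kif23, the motor of centralspindlin, read 9.72, 9.22 and 9.92 against 8.71, 8.98 and 8.94 (-0.74 ± 0.12, adjusted p = 2.06e-05). Mki67 read 12.29, 12.03 and 12.49 against 11.51, 11.60 and 11.66 (-0.68 ± 0.09, adjusted p = 4.87e-07). These 3 were apart. Anln read 9.25, 9.01 and 9.83 against 8.83, 8.67 and 8.79 (-0.60 ± 0.17), and Top2a 12.07, 11.77 and 12.18 against 11.58, 11.64 and 11.65 (-0.38 ± 0.09). Both were apart as well, like Bub3, the checkpoint protein, at 11.56, 11.40 and 11.67 against 10.99, 11.34 and 11.26 (-0.35 ± 0.07). The other lower calls, Ndc80 (8.61, 8.22 and 8.71 against 8.0, 8.33 and 8.23) and Nusap1 (10.82, 10.54 and 11.16 against 10.68, 10.58 and 10.50), overlapped. Bub3, Nusap1 and Top2a turned to 0.15, 0.18 and 0.14 with median centring, and Bub3, Cenpf and Nusap1 to 0.04, 0.33 and 0.20 with the mean of all probe sets.

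Against LAP knockout marrow, where the members stood highest on the normalized scale, 6 were higher and 19 lower, with a median of -0.33. Of all genes 28.4% were called higher, 30.4% lower and 58.8% in either direction. Median centring gave 12 higher and 6 lower (median 0.06) and values as deposited 0 higher and 26 lower (median -0.61). The mean of all probe sets gave 10 and 11 (median 0.08), so that the sign of the median rests on these choices. The higher calls were 3 without LAP knockout array 1 and 4 without LAP knockout array 3 or empty-vector array 3. Both comparisons with marrow share the empty-vector arrays. Plk1 was again the highest, at 8.73, 9.07 and 8.82 against 9.52, 9.62 and 9.62 (0.72 ± 0.13, adjusted p = 6.42e-05), followed by Espl1 (7.78, 8.07 and 7.83 against 8.29, 8.41 and 8.49) and Ccna2 (10.97, 11.38 and 11.06 against 11.41, 11.65 and 11.65). These groups were apart. Aurkb (9.11, 9.63 and 9.32 against 9.70, 9.74 and 9.81), Plk4 (9.86, 10.18 and 9.90 against 10.25, 10.23 and 10.41) and Cdk1 (10.55, 10.93 and 10.65 against 11.02, 11.03 and 11.09) completed the higher calls. All of them but Espl1 are kinases or their cyclin partners.

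The largest falls against LAP knockout marrow were in Anln, Cenpf and Kif23. Anln read 9.72, 10.14 and 9.77 in LAP knockout marrow and 8.83, 8.67 and 8.79 in LB31 cells (2.16-fold lower, log2 -1.11 ± 0.17, adjusted p = 6.98e-06). Cenpf read 10.19, 10.54 and 10.14 against 9.24, 9.17 and 9.18 (-1.10 ± 0.12, adjusted p = 1.22e-07). Kif23 read 9.76, 10.11 and 9.88 against 8.71, 8.98 and 8.94 (-1.04 ± 0.12, adjusted p = 2.4e-07). The groups were well apart in each, although Cenpf turned to 0.14 with the mean of all probe sets. By role, falls were called for 6 of 8 kinesins and spindle proteins, 4 of 5 kinetochore genes, 3 of 7 checkpoint and anaphase genes, 2 of 3 passenger partners 1 of 3 cytokinesis genes, 2 of the last block (Top2a and Mki67) and 1 of 11 kinases and activators (Ccnb2). Anln, Ccnb2, Kif23, Mki67 and Ndc80 were called lower under every alternative.

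Probe sets of the same gene disagreed in these comparisons. Against knockout marrow 2 further probe sets of called members were called the other way, and against LAP knockout marrow 7. Cenpf is lower in LB31 cells by its brightest probe set but higher by a dimmer one, by 2.04 ± 0.17 on the log2 scale against knockout marrow. Bub3 is lower by its brightest probe set and higher by another, by 0.85 ± 0.15. Kif2c is not called by its brightest probe set (-0.24 ± 0.16) and higher by its other 3, by 0.98 to 2.06. For Incenp, Plk4 and Kif11 the size differed but not the direction, with Incenp at 0.39 ± 0.10 by the brightest and 3.54 ± 0.28 by a dimmer one, Plk4 at 0.62 ± 0.12 and 2.29 ± 0.12 by a dimmer one, and Kif11 at 0.69 ± 0.15 and 2.08 ± 0.17 by a dimmer one. Against LAP knockout marrow the 7 probe sets called the other way belong to Bub3, Cenpf, Hmmr, Kif2c and Nusap1. A level for any of these 5 genes in LB31 cells relative to marrow is therefore uncertain. With the mean of all probe sets, Aurka, Bub1b and Cenpa also changed sign against LAP knockout marrow, to 0.67, 0.22 and 0.12. Their levels relative to that marrow are uncertain too. Of the 40 brightest probe sets 6 carry the suffix _s_at and 5 the suffix _x_at, which mark probes that can match more than a single transcript.

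**Figure D5:**
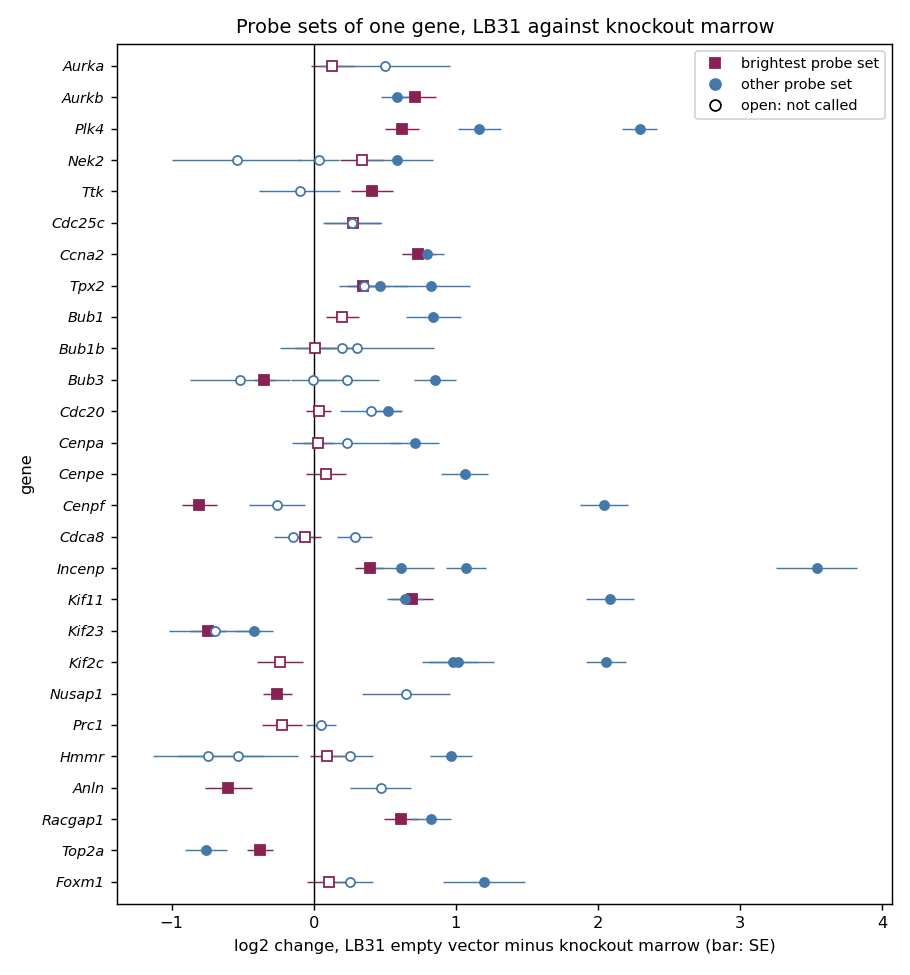
Log2 change in LB31 cells with the empty vector against knockout marrow (horizontal axis, bar 1 SE) for every tested probe set of the 27 members with more than 1; squares are the brightest probe set of a gene, circles the others, and open symbols were not called. For Cenpf, Bub3 and Kif2c called circles lie on the other side of 0 from the square, at 2.04, 0.85 and 0.98 to 2.06.

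The other cell cycle lists moved in LB31 cells in their own ways. Of 25 DNA replication genes 20 were higher and 1 lower against knockout marrow, with Mcm2 at 1.70 and Fen1 at 1.39. Of 72 other mitosis genes 33 were higher and 7 lower, with Cenpw at 2.42 and Pmf1 at 2.09. Cdkn1a was higher by 3.53, and cyclin D1 (Ccnd1) was lower by 2.55 (log2 -2.55). All 7 megakaryocyte and all 11 neutrophil markers were lower in LB31 cells, in which their mean levels were at 4.08 to 4.43 and 3.43 to 3.68 with the empty vector.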

How the data were processed

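RNA (100 ng) of 21 samples was hybridised to 1-colour Affymetrix Mouse Genome arrays. The deposited values are intensities that the authors made with MAS5, per the submitters' processing notes, whose version and scaling are not given in the sources used here. Their number, not a read depth, limits the precision.

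From the deposited intensities, log2(value + 4) was taken and all 21 arrays were quantile normalized together, so that the 7 groups share a scale. Of 45101 probe sets 64 controls were left out. Of the rest, 34945 had 1 gene symbol in the platform annotation, 932 several and 9160 none, and 34741 of the first kind matched RefSeq. The probe set with the highest mean over 21 arrays stood for a gene. Genes above the 40th percentile of the array on at least 3 arrays of a fit were tested with limma 3.58.1 in R 4.3.3 (lmFit, then eBayes, letting the variance follow intensity), in fits of 12 marrow, 9 LB31 or 21 arrays, the last for LB31 against marrow. Benjamini-Hochberg adjustment ran across every gene of a fit, with a call at an adjusted p under 0.05, in 11 comparisons. The code was tested on simulated data.

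The members and lists were chosen with earlier results of these data known. Members given with every array are those with the 3 largest called changes of a comparison in each direction, those called against the direction of most, or, for LAP knockout against wild-type marrow and Blnk against the empty vector, those with the largest and smallest change of a role. The others are given by range. Alternatives changed the scaling, the pseudocount (1 or 16), the filter (none or the 60th percentile), the choice of probe set, the trend, the fit and the arrays. Upstream sequences are from RefSeq (GRCm38.p6); members without one are named only.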

Additional observations from a re-analysis of the deposited data

How the results depend on the processing

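Counts of members called outside 1.5 times that reported were as follows. Values as deposited gave 14 for knockout against wild-type marrow, 0 for LAP knockout against knockout, 39 for LAP knockout against LAP, 4 for Blnk against the empty vector, 8 for YF against it and 0 for Blnk against YF. Median centring gave 1 for knockout and 14 for LAP knockout against wild-type, 0 for LAP knockout against knockout, 6 for LAP knockout against LAP, 24 for YF against the empty vector and 0 for Blnk against YF. Trimmed mean scaling gave 0 for LAP knockout against knockout and 3 for Blnk against YF. LAP knockout against knockout was also at 0 with quantile normalization within the fit, a pseudocount of 1, no filter, the mean of all probe sets, every probe set tested and no trend. The mean of all probe sets gave 1 for LAP against wild-type and 9 for Blnk against the empty vector. Without the trend LAP knockout against LAP had 8, Blnk against the empty vector 4 and Blnk against YF 0. A single fit of all 21 arrays gave 7, 6, 9 and 23 for knockout and LAP against wild-type and LAP knockout against knockout and LAP, 1 for Blnk against the empty vector and 0 for Blnk against YF. Leaving out single arrays gave 2 to 11 for knockout and 18 to 33 for LAP knockout against wild-type, 0 to 25 for LAP knockout against knockout, 4 to 17 against LAP, 8 to 18 for Blnk and 0 to 8 for YF against the empty vector, 0 to 1 for Blnk against YF, 19 to 26 and 21 to 24 for LB31 against knockout and LAP knockout marrow, and 0 to 0 for LAP against wild-type and the interaction. Without the replicate block LAP knockout against knockout had 1 call, and with the replicate number as a block 0; the block moved no other count by over 1.5 times. After each probe set's group mean was subtracted, same-numbered arrays of different groups correlated at -0.08 to 0.21 in marrow and -0.03 to 0.02 in LB31 cells. The numbers were therefore not taken as pairs.

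The scaling moved the share of higher calls among all calls of all genes: from 52.8% to 85.8% as deposited and 40.5% with median centring for LAP knockout against wild-type, from 49.2% to 89.5% and 32.8% for knockout, from 51.8% to 30.7% and 29.8% for LAP, from 53.5% to 90.6% and 49.6% for LAP knockout against LAP, from 46.3% to 70.9% and 82.9% for Blnk and from 40.4% to 96.5% and 97.9% for YF (57.1% with trimmed means) against the empty vector, from 43.3% to 11.9% and 19.3% for Blnk against YF, from 49.6% to 22.9% and 58.1% for LB31 against knockout and from 48.3% to 20.0% and 57.9% against LAP knockout marrow.

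The sign of a member that was called before or after turned in 32 of the cases. With the mean of all probe sets, Aurka and Bub1b came to -0.011 and -0.0064 (LAP knockout against wild-type), Aurka and Ttk to -0.020 and -0.022 (against LAP), Bub3, Cenpf, Kif2c and Nusap1 to 0.042, 0.33, 0.95 and 0.20 (LB31 against knockout), and Aurka, Bub1b, Cenpa, Cenpf, Kif2c and Nusap1 to 0.67, 0.22, 0.12, 0.14, 0.70 and 0.21 (LB31 against LAP knockout). As deposited, Mki67 came to 0.12 (Blnk against the empty vector), Ttk, Tpx2 and Foxm1 to -0.079, -0.047 and -0.56 (LB31 against knockout), and Espl1 and Foxm1 to -0.011 and -0.56 (LB31 against LAP knockout). With median centring, Mki67 came to 0.14 (Blnk against the empty vector), Bub3, Birc5, Cdca8, Nusap1 and Top2a to 0.15, 0.40, 0.37, 0.18 and 0.14 (LB31 against knockout), and Bub3, Cdc20, Ube2c, Cenpa, Birc5 and Cdca8 to 0.014, 0.16, 0.36, 0.095, 0.016 and 0.024 (LB31 against LAP knockout). The cause of these moves was not tested, apart from the construction of each alternative. Signal over background was not measured; the lowest member mean over the 21 arrays was that of Foxm1, at 6.59.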
